A study of Mus musculus with 4 samples.

Results

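SWI/SNF complexes, also called BAF complexes, slide and eject nucleosomes with energy from ATP, and they keep enhancers and promoters accessible. A complex is built from 1 ATPase (SMARCA4, also called BRG1, or its paralog SMARCA2, also called BRM), a core of scaffold subunits (SMARCB1, the SMARCC pair and SMARCE1), the actin-like protein ACTL6A and BCL7 proteins, and an ARID1A or ARID1B subunit that defines the canonical form of the complex. Genes of several subunits, among them ARID1A, SMARCA4 and BCL7A, are mutated in human B-cell lymphoma. The 8 genes described here are Arid1a, Arid1b, Smarca4, Smarcb1, Smarcc1, Smarce1, Bcl7a and Actl6a, listed by name out of 31053 genes in the matrices. Their levels were followed through the germinal center (GC), where B cells divide as centroblasts (CB) and are selected as centrocytes (CC), and into B and T cells outside it.

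The cells were splenic B220+IgD- cells from 8-week-old female C57BL/6J mice, taken 10 days after immunization with sheep red blood cells (SRBC) and profiled by droplet sequencing of RNA 3' ends. All 4 mice carried 1 copy of Cγ1-cre, a recombinase allele that is active in GC B cells. Crebbp encodes a histone acetyltransferase and Kmt2d a histone methyltransferase. WT carried no floxed allele, C carried Crebbp fl/+, K carried Kmt2d fl/+ and CK carried both. There was 1 mouse and 1 library per genotype, so a difference between genotypes could not be tested. The 4 libraries held 8071 (WT), 9981 (C), 8105 (K) and 12852 (CK) barcodes with 33270825 to 39803865 unique molecular identifiers (UMIs, 1 per captured RNA molecule), and each pair of libraries shared 17 to 31 barcodes.

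The authors named the subtype of 9804 GC B cells, each with fewer than 2500 detected genes apart from 2 cells at that limit. All barcodes under a mitochondrial limit were clustered here without the 8 genes or other listed subunits, and clusters were named only from fixed markers. Outside the annotation, 8425 cells were non-GC B-like, 8276 were T-like and 3022 were GC B-like. The non-GC B-like class pools 3 clusters. Although the sort was for IgD- cells, 1 of them, with 3476 barcodes, was led by Ighd and Fcer2a. Another, with 1279 barcodes, had Cd1d1 and Cr2 among its leading genes. The T-like class pools 7 clusters, with leading genes that included Cd8a in some and Cd4 or Ctla4 in others. The summed level of 7 GC B markers was 1761 to 2211 CPM (counts of UMIs of a gene per 1000000 UMIs of all genes) in early CB, CB, transitioning cells and CC, and 127 to 173 CPM in non-GC B-like cells. In prememory cells the same 7 markers summed to 127 to 226 CPM, close to the non-GC B-like level, and 8 non-GC B markers summed to 2485 to 2915 CPM. The sort was for B220+ cells, but 9 T cell markers summed to 8904 to 9875 CPM in T-like cells and 5 general B cell markers to 290 to 370 CPM. K stood apart among dividing GC B-like cells: 1 cluster held 702 of its cells and 4 to 18 of each other library, and another held 48 of its cells and 398 to 1066 of each other library. The targeted genes were measured by 3' tags, which need not lie in a deleted exon and so do not check the deletion. Over all annotated GC B cells, Crebbp was at 68.4 (WT), 43.0 (C), 38.6 (K) and 38.0 (CK) CPM, and Kmt2d was at 18.5, 21.3, 9.85 and 15.1 CPM.

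In the GRCm38 mouse assembly (GENCODE gene models) Arid1a lies at chr4:133679008-133756769, Arid1b at chr17:4994332-5347656, Smarca4 at chr9:21616169-21704230, Smarcb1 at chr10:75896769-75921617, Smarcc1 at chr9:110117708-110240178, Smarce1 at chr11:99209047-99231017, Bcl7a at chr5:123343834-123374992 and Actl6a at chr3:32706298-32726973. Smarca4, Smarcc1, Arid1b, Bcl7a and Actl6a are on the forward strand and Arid1a, Smarcb1 and Smarce1 on the reverse strand.

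Promoter windows of 300 bases, from 250 bases before an annotated start site to 50 after it, were found for 6 of the 8 genes in a RefSeq table of GRCm38.p6. No entry was found for Smarce1 or Bcl7a. The windows of Smarca4 and Smarca2 are shown because these 2 ATPase genes moved in opposite directions between CB and CC, and that of Smarcc1 because it fell with Smarca4. Each is written 5′ to 3′ on the strand of the gene, and capitals mark GCATGCGC or its reverse complement GCGCATGC, the center of the sequence bound by the factor NRF1.
Smarca4, chr9:21615919-21616218, forward strand: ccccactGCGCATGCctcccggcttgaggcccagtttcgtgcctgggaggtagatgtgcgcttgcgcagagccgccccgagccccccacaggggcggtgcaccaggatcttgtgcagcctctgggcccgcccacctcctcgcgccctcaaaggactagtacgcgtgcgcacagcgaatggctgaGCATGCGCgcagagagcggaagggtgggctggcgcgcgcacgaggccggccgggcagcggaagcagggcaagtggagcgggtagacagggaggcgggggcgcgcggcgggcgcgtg
Smarcc1, chr9:110131774-110132073, forward strand: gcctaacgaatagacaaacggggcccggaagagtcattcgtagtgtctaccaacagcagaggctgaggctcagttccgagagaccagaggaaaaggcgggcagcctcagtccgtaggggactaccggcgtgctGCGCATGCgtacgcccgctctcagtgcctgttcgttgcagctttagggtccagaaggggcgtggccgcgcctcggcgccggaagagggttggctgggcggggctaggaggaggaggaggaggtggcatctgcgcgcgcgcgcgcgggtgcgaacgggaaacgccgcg
Smarca2, chr19:26604910-26605209, forward strand: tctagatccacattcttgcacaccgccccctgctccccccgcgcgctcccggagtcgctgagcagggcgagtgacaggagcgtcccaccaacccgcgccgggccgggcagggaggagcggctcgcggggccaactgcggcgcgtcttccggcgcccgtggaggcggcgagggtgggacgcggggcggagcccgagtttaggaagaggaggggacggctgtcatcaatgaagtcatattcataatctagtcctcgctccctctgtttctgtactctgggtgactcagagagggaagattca
This 8-base motif was picked after the windows had been read. It occurred 2 times in the Smarca4 window, once in that of Smarcc1 and once in that of Smarcb1, and in 2.71% of 32851 windows of this length. The Smarca2, Arid1a, Arid1b and Actl6a windows did not hold it. Actl6a, whose window is not shown, also fell from CB to CC, while Smarcb1, whose window held the motif, did not pass that test. TTTGAA, the CHR element of many late cell cycle genes (17.9% of all windows), and CCAAT, the NF-Y box (37.4%), were searched on both strands and were in none of the windows of the 6 genes or of Smarca2. TTTNNCGC, an E2F-like motif found in 5.17% of windows, occurred only in 1 of the 2 windows of Arid1a. The motifs did not overlap. The windows were rich in CpG, with 33 in Smarca4, 33 in Smarcc1 and 29 in Smarca2 against a median of 7 over all windows. GCATGCGC itself holds a CpG, and its share of 2.71% is over all windows and not over windows as rich in CpG. That share is therefore no matched background, and an enrichment was not tested. The RefSeq start site of Smarcc1 lies inside the longer GENCODE span of the gene. A match is a description of the letters and not a bound site.

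Smarca4, the ATPase gene, showed the widest difference of the 8 genes between CB and CC. In CB it was at 246 (WT), 268 (C), 229 (K) and 275 (CK) CPM. In CC it was at 83.1, 75.9, 75.1 and 79.4 CPM. The lowest CB library lay far above the highest CC library, and transitioning cells, at 145 to 176 CPM, lay between and overlapped neither. Smarca4 fell by 1.65 on the log2 scale from CB to CC, a 3.14-fold drop (SE 0.08, edgeR quasi-likelihood test with library as block, adjusted p = 1.03e-28), and it was lower in 4 of 4 libraries. The test used 28 sums of UMIs, 1 for each of 7 cell classes in each library, and its adjusted p is over 10202 genes. The spread behind such p-values was pooled over all 7 classes in 4 mice that also differed in genotype. It is not the spread of a single class difference over the mice, so the count of libraries in the same direction is given beside it. Under the 12 alternative settings tried the difference ranged from -1.92 to -1.55. Among the 82 recycling cells the counts were small, 3 to 35 UMIs per library, at 48.2 to 123 CPM. GC B-like cells outside the annotation, most of which (96.7%) had at least 2500 genes, held Smarca4 at 263 to 302 CPM, above the CB of the same library in each case.

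**Figure D1:**
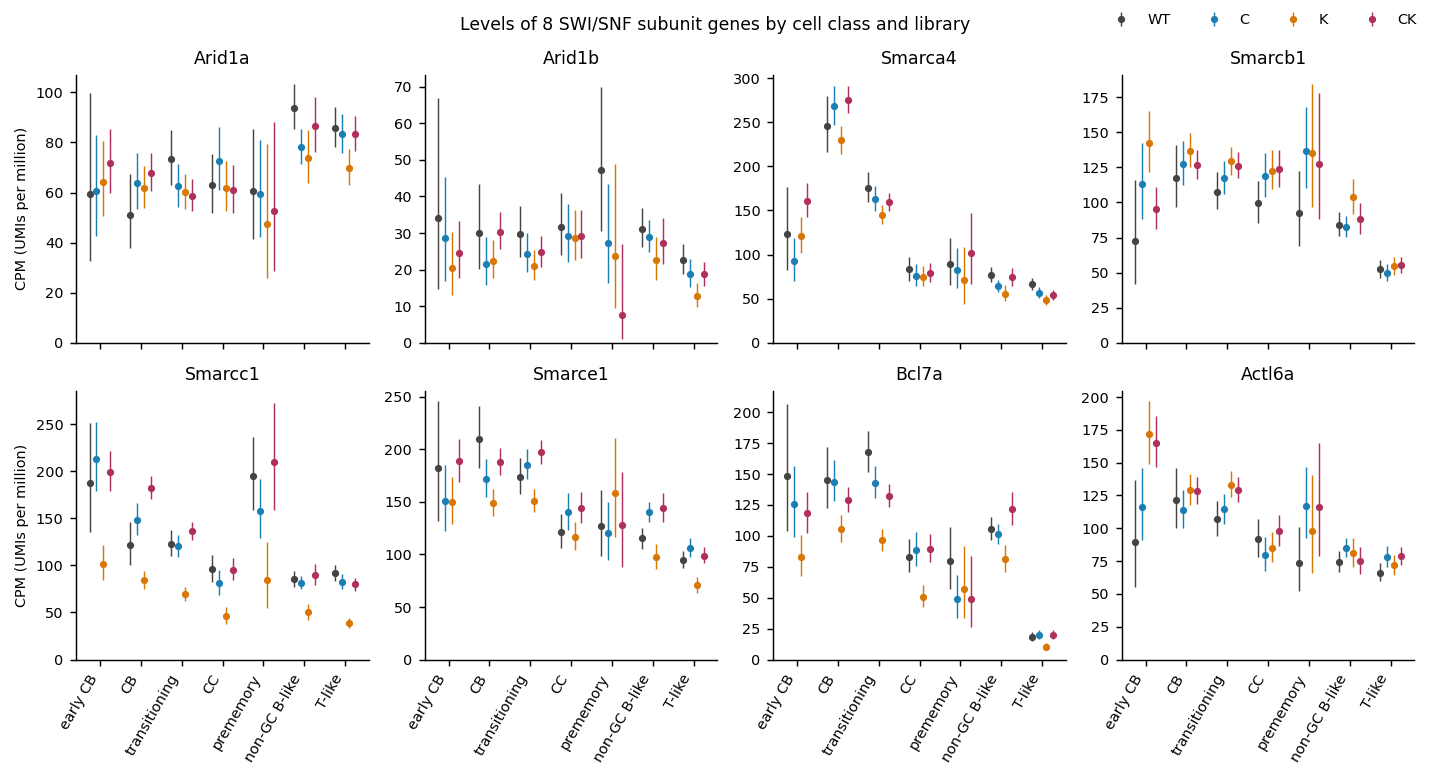
Level of each of the 8 genes in CPM (vertical axes, from 0, a scale of its own per gene) in 7 cell classes (horizontal axes); each point is 1 library, colored by genotype, with its exact 95% counting interval. Smarca4 was at 229 to 275 CPM in CB and at 75.1 to 83.1 CPM in CC, and Bcl7a was at 10.1 to 20.05 CPM in T-like cells.

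Smarca2, which encodes the alternative ATPase, moved the other way. It was at 11.4 (WT), 17.3 (C), 10.2 (K) and 15.1 (CK) CPM in CB and at 25.1, 36.6, 15.6 and 31.4 CPM in CC. The ranges overlapped only through K, the lowest library in both classes. Smarca2 rose by 0.99 on the log2 scale (1.98-fold, SE 0.16, adjusted p = 1.34e-07 in the edgeR fit), in 4 of 4 libraries. Smarca4 supplied 93.9% to 95.7% of the UMIs of the ATPase pair in CB, 88.2% to 90.9% in transitioning cells and 67.5% to 82.8% in CC. The share was 70.1% to 80.8% in prememory cells, 54.2% to 66.1% in non-GC B-like cells and 46.2% to 57.0% in T-like cells. These are shares of 3' tags and compare classes, not the amounts of the proteins. The CC share differed between libraries by more than its counting error: in C it was 67.5% (exact 95% interval 60.7% to 73.7%) and in K 82.8% (77.3% to 87.5%). K also had the highest share in non-GC B-like and T-like cells (66.1% and 57.0%).

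**Figure D2:**
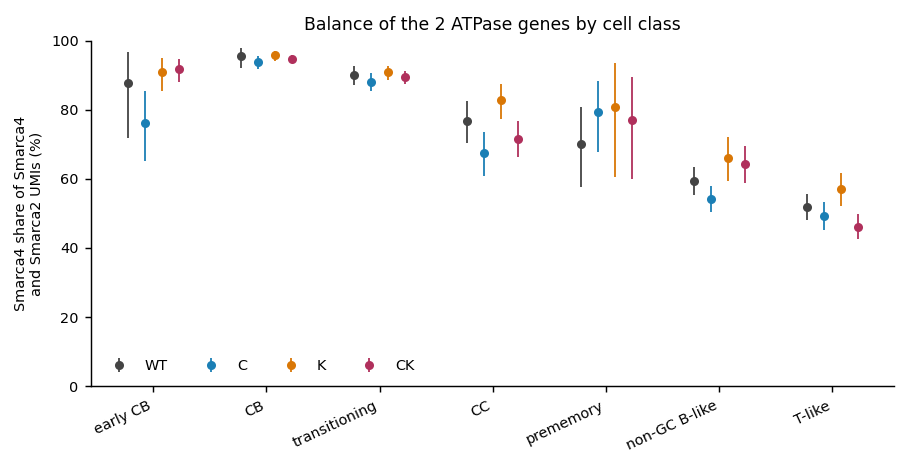
Share of the UMIs of Smarca4 and Smarca2 that came from Smarca4 (vertical axis, percent, 0 to 100) in 7 cell classes (horizontal axis), with 1 point per library and its exact 95% binomial interval. The share was 93.9% to 95.7% in CB, 67.5% to 82.8% in CC and 46.2% to 57.0% in T-like cells.

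Smarcc1, a core scaffold subunit (BAF155), was at 122 (WT), 149 (C), 84.1 (K) and 183 (CK) CPM in CB and at 95.7, 81.2, 46.3 and 95.3 CPM in CC. It was lower in CC in each library, though CC of WT and CK lay above CB of K. The fall was 0.74 on the log2 scale (1.68-fold, SE 0.09, adjusted p = 1.11e-11, edgeR), and its paralog Smarcc2 fell by 0.40 (adjusted p = 0.00165, 3 of 4 libraries). Smarce1, a DNA-binding core subunit (BAF57), was at 210, 172, 149 and 188 CPM in CB and 121, 140, 117 and 144 CPM in CC, and it fell by 0.37 (1.29-fold, SE 0.08, adjusted p = 3.01e-05, 4 of 4 libraries). Here the lowest CB value, 149 CPM in K, was above the highest CC value. Smarcb1, the core subunit lost in rhabdoid tumors, was at 117, 127, 137 and 127 CPM in CB and 99.5, 119, 123 and 124 CPM in CC. These ranges overlapped, and the difference of -0.06 (SE 0.08, adjusted p = 0.541) did not pass the test. With cells of 2500 genes or more added by nearest-neighbour label, the Smarcb1 difference was -0.19 with an adjusted p of 0.00191.

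Bcl7a, the gene of a small subunit that is recurrently rearranged or mutated in B-cell lymphoma, was at 145 (WT), 144 (C), 106 (K) and 129 (CK) CPM in CB and at 83.1, 88.7, 50.7 and 89.7 CPM in CC. All CB values lay above all CC values. It fell by 0.69 on the log2 scale (1.62-fold, SE 0.09, adjusted p = 1.09e-10, edgeR, 4 of 4 libraries). Of its paralogs, Bcl7c fell by 0.46 (adjusted p = 4.28e-05, 4 of 4 libraries), and Bcl7b differed by 0.18 (adjusted p = 0.125). Actl6a, the actin-like subunit of proliferating progenitors, was at 122, 114, 129 and 128 CPM in CB and 91.8, 79.6, 85.1 and 97.8 CPM in CC, also without overlap. Its fall was 0.41 (1.32-fold, SE 0.09, adjusted p = 0.000114, 4 of 4 libraries). Its neuronal paralog Actl6b had 0 UMIs in each class of each library.

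The ARID subunits did not follow. Arid1a was at 50.9 (WT), 64.0 (C), 61.7 (K) and 67.9 (CK) CPM in CB and at 62.9, 72.7, 61.9 and 60.9 CPM in CC, with overlapping ranges and a difference of 0.07 (SE 0.10, adjusted p = 0.710, edgeR). Arid1b was at 30.1, 21.6, 22.5 and 30.4 CPM in CB and 31.7, 29.2, 28.8 and 29.2 CPM in CC, a difference of 0.20 (SE 0.14, adjusted p = 0.229). With each cell thinned to 2000 UMIs the Arid1b difference was 0.49 and its adjusted p 0.0392. Arid1a supplied 62.8% to 74.7% of the UMIs of the ARID1 pair in CB and 66.5% to 71.4% in CC. The 2 ranges overlapped.

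From CB to CC, then, 5 of the 8 genes fell, none rose and 3 did not pass the test, at an adjusted p under 0.05. Over all 10202 genes tested, 24.0% were called lower and 23.8% higher. The median difference of the 8 genes was -0.39 and that of all genes tested 0.02. Of 20 other listed subunit genes, 16 were abundant enough to test: 7 fell, 1 rose and 8 did not pass. Besides Smarca2, those with the smallest p were Pbrm1, the bromodomain subunit of the PBAF form, which fell by 0.71 (adjusted p = 4.08e-13), Phf10, another PBAF subunit, which fell by 0.85 (adjusted p = 3.33e-09), Ss18, which fell by 0.70 (adjusted p = 1.81e-06), Bcl7c, and Bicra, a subunit of the GBAF form, which fell by 0.60 (adjusted p = 0.000123). Smarcd3, Dpf1, Dpf3 and Actl6b were too low to test. Proliferation markers also differed between CB and CC: 4 of them (Mki67, Top2a, Pcna and Mcm5) summed to 1189 to 2464 CPM in CB and 155 to 214 CPM in CC. They summed to 504 to 689 CPM in transitioning cells, where mean Smarca4 was 161 CPM. In early CB they summed to 1639 to 2333 CPM, but mean Smarca4 was 124 CPM there against 255 CPM in CB. In prememory cells they summed to 139 to 172 CPM, while mean Smarcc1 was 162 CPM there against 79.6 CPM in CC. The part of proliferation in the result was not tested. CC also held fewer UMIs per cell than CB (library medians 2670 to 4741 against 4604 to 5526), so that on a scale of UMIs per cell the mean Smarca4 difference was -2.11.

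**Figure D3:**
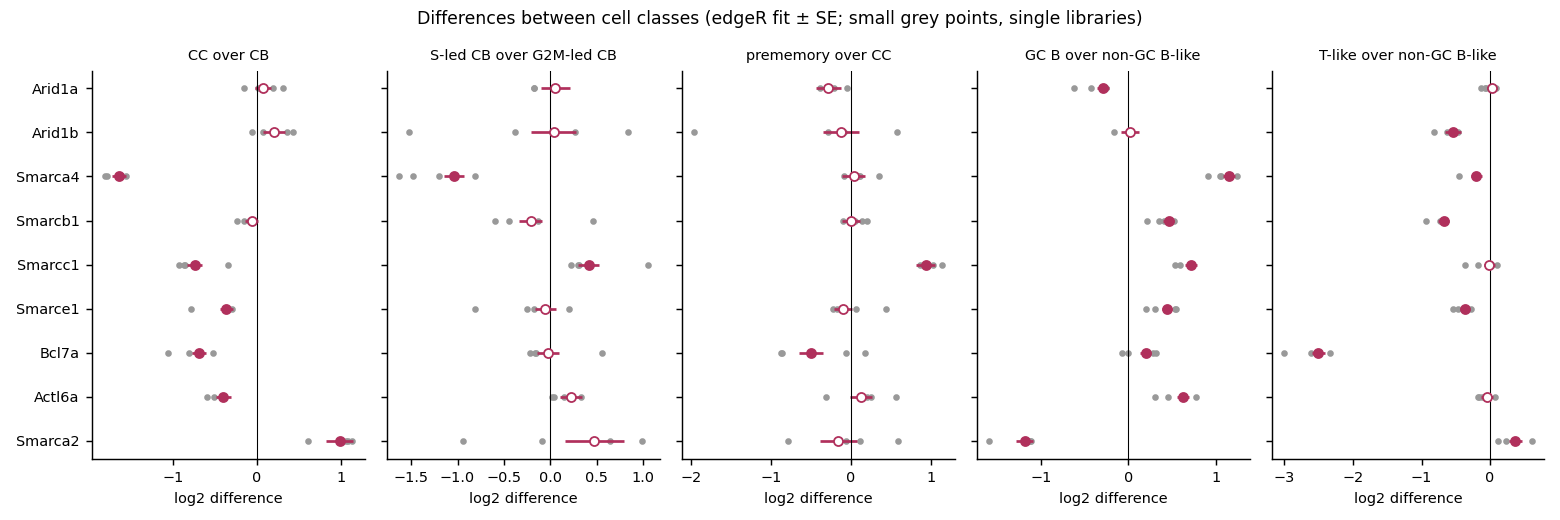
Log2 difference (horizontal axes, a scale of its own per panel) of the 8 genes and Smarca2 in 5 comparisons of cell classes; large points are the edgeR estimate ± SE, filled where the adjusted p was under 0.05, and small grey points are the CPM difference in each of the 4 libraries. Smarca4 fell by 1.65 from CB to CC and Bcl7a was lower by 2.51 in T-like than in non-GC B-like cells.

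Within CB, the deposited cell cycle scores were used to set 375 cells whose S-phase score led against 1704 cells whose G2M score led. Smarca4 was at 90.9 (WT), 134 (C), 95.2 (K) and 175 (CK) CPM in S-led CB and at 281, 306, 265 and 308 CPM in G2M-led CB. Each G2M-led library lay above each S-led library. Smarca4 was lower in S-led CB by 1.04 on the log2 scale (2.06-fold, SE 0.11, adjusted p = 6.73e-14, edgeR over 6408 genes, 4 of 4 libraries). Smarcc1 went the other way, at 222, 182, 103 and 215 CPM in S-led CB and 107, 147, 84.0 and 184 CPM in G2M-led CB, with a rise of 0.41 (1.33-fold, SE 0.11, adjusted p = 0.00293, 4 of 4 libraries). WT gave the widest Smarcc1 difference, 1.05, from 22 UMIs in 18 S-led cells, and without WT the estimate was 0.34 (adjusted p = 0.0152). The Smarcc1 call was lost with DESeq2's Wald test (0.44, adjusted p = 0.0571), without the library term (0.48, adjusted p = 0.229) and with cells thinned to 2000 UMIs (0.42, adjusted p = 0.0642).

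Thus 1 of the 8 genes was lower in S-led CB, where 10.5% of 6408 genes were, and 1 was higher, where 17.1% were. The other 6 did not pass the test, and their estimates lay between -0.21 for Smarcb1 and 0.22 for Actl6a. Among the other subunits, 14 of 20 were tested and 2 rose in S-led CB: Smarcc2 by 0.60 (adjusted p = 0.00236) and Phf10 by 0.47 (adjusted p = 0.0121). None fell. Early CB, which precede CB in the authors' naming, were set against neither, but their Smarca4 level of 92.3 to 161 CPM lay below that of CB, and their Smarcc1 level of 102 to 213 CPM overlapped that of CB.

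The deposited pseudotime rank, which orders the annotated GC cells, was divided into 5 parts of equal cell number within each library. Smarca4 dropped at each step in each library: in WT it was at 205, 170, 138, 111 and 84.9 CPM from the first to the last part, and in CK at 243, 200, 159, 129 and 86.7 CPM. The log2 difference of the last from the first part was -1.27 (WT), -1.52 (C), -1.30 (K) and -1.49 (CK). Smarcc1 was lower in the last part in 4 of 4 libraries (mean -1.01 ± 0.34, SD, n = 4), most of it before part 4 in C and K. Bcl7a (-0.76 ± 0.17), Actl6a (-0.70 ± 0.26) and Smarce1 (-0.39 ± 0.17) were also lower at the end in 4 of 4 libraries. Smarce1 peaked in part 2 or 3 in WT, K and CK. Smarca2 was higher at the end in 4 of 4 libraries (mean 0.88 ± 0.37). Arid1a, Arid1b and Smarcb1 had no common direction, with means of 0.08 ± 0.24, 0.23 ± 0.42 and -0.12 ± 0.26. The authors computed the rank from the expression of these same cells and only the order within a library was used here, so these values are a description and carry no test.

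**Figure D4:**
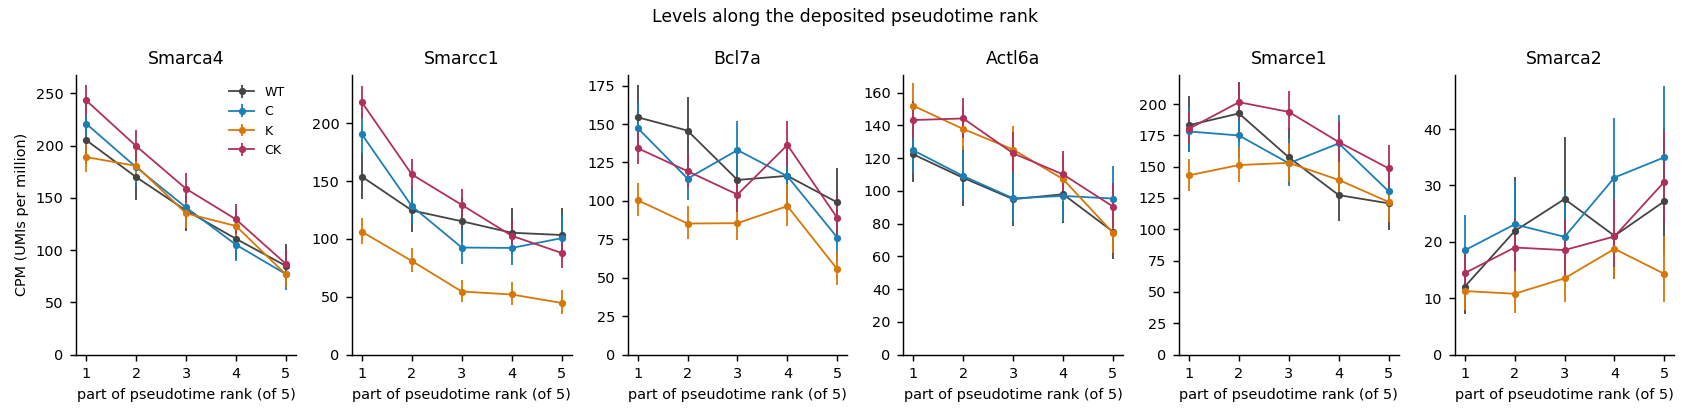
Level in CPM (vertical axes, from 0, a scale of its own per gene) of 5 of the 8 genes and of Smarca2 in 5 equal parts of the deposited pseudotime rank (horizontal axes), with 1 line per library and exact 95% counting intervals. Smarca4 ran from 189 to 243 CPM in the first part to 76.6 to 86.7 CPM in the last, and Smarca2 ran from 11.3 to 18.5 CPM to 14.3 to 35.0 CPM.

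Prememory cells differed from CC in 2 of the 8 genes. Smarcc1 was at 195 (WT), 158 (C), 84.5 (K) and 210 (CK) CPM in prememory cells, against 95.7, 81.2, 46.3 and 95.3 CPM in CC. Each prememory value was the higher one of its library, and K was lowest in both classes. It rose by 0.93 on the log2 scale (1.91-fold, SE 0.12, adjusted p = 2.43e-10, edgeR, 4 of 4 libraries). Bcl7a was at 79.5, 48.7, 57.4 and 48.8 CPM in prememory cells against 83.1, 88.7, 50.7 and 89.7 CPM in CC, a fall of 0.50 (1.42-fold, SE 0.15, adjusted p = 0.00540) that 3 of 4 libraries showed, K being higher. Without C the Bcl7a difference was -0.36 with an adjusted p of 0.156, and without the library term it was -0.48 with an adjusted p of 0.0726. Thus 1 of the 8 genes rose, where 18.8% of 10202 genes did, and 1 fell, where 17.6% did. Among the other subunits 1 of 16 tested rose, Bcl7c by 1.06 (adjusted p = 8.99e-11, 4 of 4 libraries), and 1 fell, Bicra by 0.77 (adjusted p = 0.0246). Bcl7a supplied 31.2% to 42.8% of the UMIs of the 3 Bcl7 genes in CC and 19.1% to 28.4% in prememory cells. Smarca4 was at 71.0 to 101.3 CPM, which overlapped its CC range, with a difference of 0.03 (SE 0.14, adjusted p = 0.898). There were 93 to 225 prememory cells per library, and only 45.8% of them were given their own name by the labels of their nearest neighbours.

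Set against non-GC B-like cells, the GC stages (the mean of early CB, CB, transitioning cells and CC on the log2 scale) held more of 6 of the 8 genes. Smarca4 was at 76.9 (WT), 64.1 (C), 55.7 (K) and 74.1 (CK) CPM in non-GC B-like cells, below each library's early CB, CB and transitioning cells, and near its CC level. It was higher in the GC stages by 1.15 (2.22-fold, SE 0.07, adjusted p = 4.34e-25, edgeR, 4 of 4 libraries). Smarcc1, at 85.2, 81.5, 50.02 and 90.2 CPM outside the GC, was higher by 0.72 (adjusted p = 3.38e-16), and Actl6a, at 74.3, 85.2, 80.9 and 75.1 CPM, by 0.62 (adjusted p = 1.14e-12), each in 4 of 4 libraries. Smarcb1 (0.46, adjusted p = 3.85e-10) and Smarce1 (0.44, adjusted p = 2.42e-10) were also higher in 4 of 4 libraries. Bcl7a was called higher by 0.20 (adjusted p = 0.00440), but only 2 of 4 libraries showed it and the call was lost in 5 of 12 alternative settings, among them DESeq2's Wald test (0.15, adjusted p = 0.0784), without WT (0.14, adjusted p = 0.0724) and without C (0.14, adjusted p = 0.107). These are differences of the mean over the stages, and CC did not share all of them. Bcl7a in CC was at 83.1 (WT), 88.7 (C), 50.7 (K) and 89.7 (CK) CPM. In non-GC B-like cells it was at 106, 101.2, 81.2 and 122 CPM, higher in each library. Smarcc1 in CC, at 95.7, 81.2, 46.3 and 95.3 CPM, was near its non-GC B-like level and lower in C and K. Smarce1 in C and CK was at 140 and 144 CPM in both classes.

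Arid1a was the exception, with 93.9, 78.2, 73.7 and 86.7 CPM in non-GC B-like cells, above each library's CB level of 50.9 to 67.9 CPM. It was lower in the GC stages by 0.30 (1.23-fold, SE 0.07, adjusted p = 9.22e-05, 4 of 4 libraries, edgeR), while Arid1b differed by 0.02 (SE 0.10, adjusted p = 0.854). So 6 of the 8 genes were higher, where 34.8% of 10202 genes were, and 1 was lower, where 37.1% were. Their median difference was 0.45, against -0.04 over all genes. Of the other subunits 5 of 16 tested were higher, led by Phf10 (1.04, adjusted p = 4.61e-17), and 6 were lower, led by Smarca2 (-1.19, adjusted p = 1.49e-19). CPM is a share of each cell's RNA. GC cells held more RNA, with library medians of 2670 to 6674 UMIs per cell over the 4 stages against 1223 to 2180 in non-GC B-like cells, and on a scale of UMIs per cell Arid1a too was higher in the GC stages, by a mean of 0.93.

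T-like cells were set against non-GC B-like cells as a second lineage. Bcl7a was at 18.1 (WT), 20.05 (C), 10.1 (K) and 19.98 (CK) CPM in T-like cells and at 106, 101.2, 81.2 and 122 CPM in non-GC B-like cells. The ranges lay far apart, and the difference of -2.51 (5.68-fold, SE 0.09, adjusted p = 2.01e-40, edgeR, 4 of 4 libraries) was wider than any other class difference of the 8 genes in the 5 comparisons. Bcl7a supplied 6.96% to 13.4% of the UMIs of the 3 Bcl7 genes in T-like cells and 35.1% to 44.7% in non-GC B-like cells, while Bcl7c was lower by 0.19 (adjusted p = 0.0383) and Bcl7b differed by -0.08 (adjusted p = 0.415). Smarcb1, at 49.7 to 55.4 CPM in T-like and 82.7 to 104 CPM in non-GC B-like cells, was lower by 0.68 (adjusted p = 9.59e-13, 4 of 4 libraries). Arid1b was lower by 0.54 (adjusted p = 3.51e-05) and Smarce1 by 0.36 (adjusted p = 8.05e-06), each in 4 of 4 libraries. With cells thinned to 2000 UMIs the Arid1b difference was -0.31 with an adjusted p of 0.17. Smarca4 was called lower by 0.20 (adjusted p = 0.0356), and this call was lost in 8 of 12 alternative settings, among them without WT (-0.19, adjusted p = 0.0916), without K (-0.22, adjusted p = 0.0553) and without CK (-0.10, adjusted p = 0.352). On a scale of UMIs per cell Smarca4 and Smarce1 were higher in T-like cells, by means of 0.32 and 0.16.

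That made 5 of the 8 genes lower in T-like cells, where 29.8% of 10202 genes were, and 0 higher, where 30.1% were. Arid1a (0.03), Smarcc1 (-0.01) and Actl6a (-0.05) did not pass, with adjusted p of 0.798, 0.905 and 0.657, and the sign of each changed under at least 1 alternative setting. Of the other subunits 7 of 16 tested were lower and 2 were higher, Ss18 (0.61, adjusted p = 1.82e-07) and Smarca2 (0.37, adjusted p = 0.000343).

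Between genotypes, ratios of CPM are given with exact intervals that cover counting error only. They do not cover the spread between mice. Smarca4 in CC was within 1.11-fold of WT in C (log2 ratio -0.13, interval -0.47 to 0.21), K (-0.15, -0.46 to 0.17) and CK (-0.07, -0.37 to 0.24), and in CB its ratios were 0.12 (-0.10 to 0.35), -0.10 (-0.31 to 0.11) and 0.16 (-0.04 to 0.37). All 6 intervals included 0. The CB ratios depended on the processing. With cells thinned to 2000 UMIs they were 0.53 (C), 0.31 (K) and 0.45 (CK), and relative to T-like cells 0.35, 0.36 and 0.46. Within T-like cells Smarca4 was below WT in C (-0.23, -0.46 to -0.003), K (-0.47, -0.71 to -0.23) and CK (-0.30, -0.51 to -0.09). Its drop from CB to CC was of like size in each library, with log2 differences of -1.57 (WT), -1.82 (C), -1.61 (K) and -1.79 (CK), and whether these differ between genotypes could not be tested with 1 mouse each.

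In K, Smarcc1 showed the largest ratios of the 8 genes in CB, CC and T-like cells. It was lower in K than in WT in CB (log2 ratio -0.53, -0.84 to -0.21) and in CC (-1.05, -1.40 to -0.70). It was also lower in K in cells outside the GC, at -0.77 (-1.06 to -0.48) in non-GC B-like and -1.24 (-1.48 to -0.999) in T-like cells. Bcl7a in K was likewise lower in CC (-0.71, -1.06 to -0.36) and in T-like cells (-0.84, -1.35 to -0.34). Taken relative to T-like cells, the K ratios in CC were 0.19 for Smarcc1 and 0.13 for Bcl7a, with the sign turned. In K the ratio to WT also went with transcript length over all genes, with a Spearman rho of -0.56 across 8713 genes in T-like cells against -0.15 in C and -0.21 in CK, a description across genes that are not independent. The part of length in the Smarcc1 and Bcl7a ratios was not tested. The median of all genes in K was itself at -0.12 in CB, -0.10 in CC and -0.17 in T-like cells, and with that shift removed Smarcc1 in CC was at -0.94.

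In CK, Smarcc1 was higher than in WT in CB (183 against 122 CPM, log2 ratio 0.59, interval 0.31 to 0.88), while in CC (95.3 against 95.7 CPM) the ratio was -0.01 (-0.29 to 0.28). With cells of 2500 genes or more added the CB ratio was 0.05. In the C library no member passed 1.5-fold in CB or CC, and Smarce1 in CB was the only one of 16 intervals there that did not include 0 (-0.29, -0.54 to -0.03). The share of all genes with such an interval was not computed.

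In CB, a ratio past 1.5-fold in either direction was seen for 0 of the 8 genes in C, for 0 in K and for 1 in CK. Of all genes that reached 50 UMIs in the 2 libraries together, 9.73%, 25.5% and 18.0% passed it. In CC 2 genes passed it in K and 0 in C or CK, where 22.6% (K), 5.79% (C) and 7.56% (CK) of all genes did. In T-like cells the counts were 0, 3 and 0 beside 4.56%, 23.1% and 4.22% of all genes. The median log2 ratio of the 8 genes was 0.05 (C), -0.26 (K) and 0.09 (CK) in CB and -0.01, -0.13 and 0.04 in CC, beside -0.01, -0.12 and -0.03 in CB and 0.02, -0.10 and 0.04 in CC over all genes. Over all annotated GC B cells the CK median was 0.21 (all genes -0.03). It was 0.05 when subtypes were weighted by their share in WT, where 183 of 1227 annotated cells were CB against 1013 of 3953 in CK, and -0.01 with cells of 2500 genes or more added. In the main values over all annotated GC B cells, 5 of the 8 CK intervals lay above 0 and 1, that of Arid1b, below. In K 2 lay above and 4 below. The share of all genes with such intervals was not computed, so these counts have no background beside them and are not a result about the 8 genes.

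**Figure D5:**
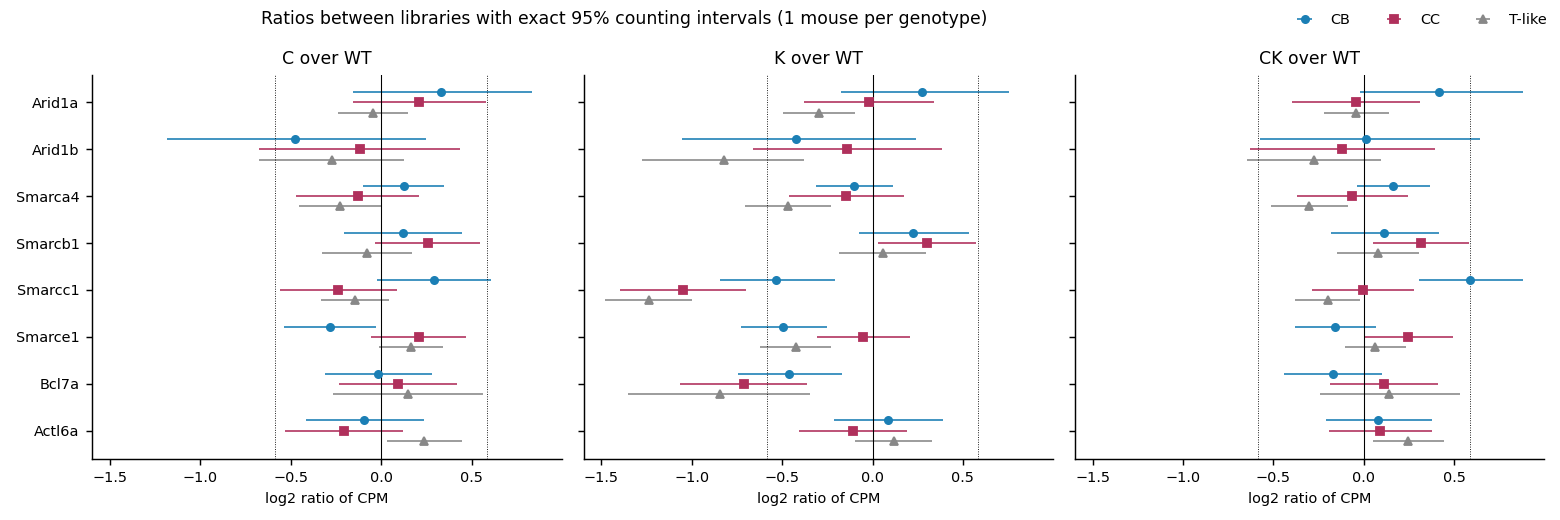
Log2 ratio of CPM between each mutant library and WT (horizontal axes) for the 8 genes in CB, CC and T-like cells, with exact 95% counting intervals; dotted lines mark 1.5-fold, and there was 1 mouse per genotype. Smarcc1 in K was at -1.05 in CC and at -1.24 in T-like cells, and Smarca4 intervals in CB and CC included 0.

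The ordering of the class means summed up these patterns over 8 classes, recycling cells included. For Smarca4, CB (255 CPM, mean of 4 libraries) stood above transitioning cells (161 CPM) with no overlap of library ranges, and each later pair of neighbours overlapped, down to T-like cells (56.5 CPM). For Smarcb1 the one gap lay between non-GC B-like (89.7 CPM) and T-like cells (53.0 CPM). For the other 6 genes neighbouring classes overlapped throughout. For Bcl7a, T-like cells (17.1 CPM) overlapped only recycling cells, and only through the K library, which held 1 Bcl7a UMI in that class. Without recycling cells the next class up is prememory (58.6 CPM), whose library range did not overlap that of T-like cells.

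Over the 28 sums of UMIs, the genes with the most similar levels were named by Pearson's r of log2(CPM + 1) among 7353 genes with at least 20 UMIs in at least 14 sums. For Smarca4 they were Rpap3 (r = 0.942) and Calm3 (r = 0.928), for Smarcc1 Immt (0.958) and U2surp (0.942), for Bcl7a Stx7 (0.949) and Mtss1 (0.948), and for Actl6a the splicing factor genes Sf3a3 (0.905) and Phf5a (0.902). For Smarcb1 they were Ddx41 (0.8998) and Med7 (0.877), for Smarce1 Ywhae (0.896) and Stk11 (0.883), for Arid1a Stk38 (0.865) and Ankrd44 (0.819), and for Arid1b Rab4b (0.834) and Ggta1 (0.824). Among the 8 genes themselves r was highest for Bcl7a and Smarce1 (0.847) and lowest for Arid1a and Smarcb1 (-0.650). The 28 sums share 4 libraries and differ in depth, so these values describe the sums and carry no p.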

How the data were processed

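Per the file headers, the authors made the UMI counts with Cell Ranger 3.0.2 (3.0 in the submitters' processing notes, which name mm10 and Seurat 4.0), and the matrices hold raw counts per gene and barcode. The authors deposited for each annotated GC B cell a subtype name, S and G2M module scores and a pseudotime rank, a score made with slingshot. Here 31718 barcodes with mitochondrial UMIs under 8% were clustered (scanpy 1.11.5, 30 principal components, leidenalg 0.10.2 at resolution 1), and 12 of 28 clusters stayed unnamed. UMIs were summed per class and library, and classes were compared with edgeR 4.0.16 quasi-likelihood tests (TMM, library as block, Benjamini-Hochberg). Each library is 1 mouse, so the block pairs the sums of 1 mouse. CB were S-led or G2M-led where that score was the higher and above 0. On data simulated for CC over CB (9704 genes), 49% of 1.5-fold and 81% of 2-fold changes were recovered. Each simulated gene had the same mean share in all classes and libraries apart from the changes set in CC. No library or genotype effect was drawn, so these rates hold for that simpler setting only. Intervals are exact at 95% and cover counting error only. Doublets called with Scrublet stayed in the main values. The 8 genes and all lists were chosen with earlier results of these data known. Besides the 8 genes and paralogs, the rule named Crebbp, Kmt2d, up to 6 other subunits by p in CC over CB, and the 2 genes most alike each gene. Alternatives were edgeR with DESeq2 1.42.0 size factors, DESeq2's Wald test, no filter, fewer classes, each library left out, no block, doublets removed, cells above the gene limit added, and thinning to 2000 UMIs, which left out 9004 of 29527 cells.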

Additional observations from a re-analysis of the deposited data

Results flagged for a closer look

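In 40 groups of 4 libraries, 1 for each gene and class comparison, a single library was tested for standing far from the other 3. Chance would mark about 1 in 20 such groups if they were independent and their 4 values had equal spread. Neither holds here. The groups share libraries and classes, and the sums differ in size, with 183 CB in WT and 1013 in CK. The 5 of 40 groups that were marked are thus a list to look at and cannot show an excess over chance. Smarcc1 fell less from CB to CC in WT (log2 difference -0.35) than in the other 3 libraries (-0.94 to -0.86). Arid1b in the GC over non-GC B-like cells was at -0.17 in C and at -0.01 to 0.02 in the others. Smarca4 in T-like over non-GC B-like cells was at -0.45 in CK and at -0.21 to -0.17 in the others. In S-led over G2M-led CB, WT stood apart for Smarcc1 (1.05 against 0.23 to 0.31) and for Bcl7a (0.56 against -0.22 to -0.16), and its S-led sum held 18 cells.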

How the results depend on the processing

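Of the values of the 8 genes in the class comparisons under alternative settings, 399 kept their direction and their side of the threshold, 19 lost and 3 gained a call, and 42 changed sign. None of those 42 had passed the test. Each of the 5 falls from CB to CC kept its call under all 12 alternatives. The cause of the changes given here was not tested.

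Leaving out 1 library at a time moved these estimates across 0. Arid1a ran from -0.00485 to 0.174 (CC over CB), -0.0133 to 0.0905 (T-like over non-GC B-like) and -0.0622 to 0.0934 (S-led over G2M-led CB). Arid1b ran from -0.0213 to 0.0754 (GC over non-GC B-like) and -0.376 to 0.212 (S-led over G2M-led CB), and Smarcc1 from -0.0535 to 0.0613 (T-like over non-GC B-like). In prememory over CC the limits were -0.0829 to 0.0965 for Smarca4, -0.138 to 0.0309 for Smarcb1 and -0.113 to 0.244 for Actl6a.

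When cells above the gene limit entered, Arid1a was at -0.117 (CC over CB), Arid1b at -0.0582 (GC over non-GC B-like), Smarcc1 at 0.0240 (T-like over non-GC B-like) and Smarcb1 at -0.0537 (prememory over CC). With Scrublet calls removed, the same Arid1b, Smarcc1 and Smarcb1 differences were -0.00984, 0.0158 and -0.0550. With thinned cells Smarcc1 (T-like over non-GC B-like) was at 0.0420, Smarcb1 (prememory over CC) at -0.0789 and Arid1a (S-led over G2M-led CB) at -0.0944. With DESeq2 size factors in edgeR and with DESeq2's Wald test, in this order, Arid1b (GC over non-GC B-like) was at -0.0250 and -0.0248, Smarcc1 (T-like over non-GC B-like) at 0.0535 and 0.0514 and Actl6a there at 0.0189 and 0.0197. The Wald test gave -0.0667 for Arid1b (S-led over G2M-led CB). With no filter on low counts Arid1b (GC over non-GC B-like) was at -0.0585, Smarcc1 and Actl6a (T-like over non-GC B-like) at 0.0602 and 0.0259, Smarca4 and Smarcb1 (prememory over CC) at -0.0164 and -0.0432, and Arid1a and Arid1b (S-led over G2M-led CB) at -0.0402 and -0.0534. With only the compared classes Arid1b (GC over non-GC B-like) was at -0.0106, and with no library block Smarcb1 (prememory over CC) was at -0.0272.

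On a scale of UMIs per cell Arid1a (GC over non-GC B-like) turned to 0.93, and Smarca4 and Smarce1 (T-like over non-GC B-like) to 0.32 and 0.16. Relative to T-like cells the K ratios in CC turned to 0.19 for Smarcc1 and 0.13 for Bcl7a, and the K median of the 8 genes was 0.37 in CB, 0.26 in CC and 0.28 over all annotated GC B cells. The last was 0.0329 with median-of-ratios scaling and 0.0530 relative to non-GC B-like cells. The CK median over all annotated GC B cells was -0.00698 when cells above the gene limit entered and 0.0535 with subtypes weighted as in WT.

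Over all genes, 5 counts of calls moved by more than 1.5 times. T-like over non-GC B-like gave 3932 calls with thinned cells, against 3071 higher and 3036 lower. S-led over G2M-led CB gave 814 with DESeq2's Wald test, 688 with no library block, 819 with thinned cells and 1081 (without K) to 1776 when a library was left out, against 1770. For that comparison the added cells and the restriction to the compared classes were not run. The class comparisons were paired by library, as a block in the fit. Between genotypes no paired analysis was possible because each genotype has 1 library. With 1 mouse per genotype no spread between mice is known, and prememory, recycling and S-led cells are few.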
